A study of Homo sapiens with 5 samples.

Results

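The mRNA levels of 10 genes of the circadian clock, PER1, PER2, PER3, CRY1, CRY2, ARNTL, CLOCK, NR1D1, NR1D2 and DBP, were compared between RPE1 cells treated with DMSO and with doxorubicin. The genes were chosen by symbol, among 26485 genes with deposited counts, and ARNTL is the older symbol of BMAL1. All 10 were found and all 10 passed the filter for low counts, which kept 14187 genes. RPE1 is an established, wild-type human line labelled as retinal pigment epithelial. Poly-A RNA was sequenced from 2 libraries of cells given the solvent DMSO, 2 of cells given 0.2 μM doxorubicin and 1 of cells given 0.34 μM doxorubicin, all for 18 h. Doxorubicin is a DNA intercalator that traps topoisomerase 2 and causes DNA double-strand breaks. The concentrations are those of the sample titles, and the treatment protocol in the labels states far higher ones. No step that synchronizes the clock between cells is described, and each condition was sampled at a single time.

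The circadian clock of mammalian cells is a transcriptional feedback loop that runs with a period of about a day. The proteins ARNTL and CLOCK bind E-boxes as a pair and activate the PER and CRY genes, whose products then block the pair. In a further loop the nuclear receptors NR1D1 and NR1D2 (REV-ERB alpha and beta) repress ARNTL through ROR elements, and DBP activates genes with D-boxes. The loop runs in most cell types, cultured lines included, and in a culture the cells drift out of phase unless they are synchronized.

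The count totals per library lay between 23773061 and 36725345. For the 10 genes they gave between 87 and 3091 counts per library, so that the counting error of a single value was between 10.7% and 1.80%. The libraries numbered 2 stood apart in both treatments in some of the cell type markers. CDH5, a gene of endothelial cells, had 56 counts in DMSO replicate 2 and 69 in replicate 2 of 0.2 μM, against 2, 4 and 5 counts in the other libraries. COL1A1, a collagen gene, was at 64.5 and 42.7 CPM (counts scaled to a common library size by the TMM method) in these libraries and between 151 and 287 in the others. THY1, a mesenchymal gene, was also lower in them (371 and 351 CPM) than in the others (386 to 502). SNAP25, a gene of neurons, was higher in them (79 and 61 counts against 25 to 37). RBFOX3, a further gene of neurons, was not, with 0 counts in them and 0, 3 and 3 in the others. PECAM1, a further endothelial gene (3 to 13 counts), and the collagen gene COL1A2 (6 to 13 counts) did not set them apart. Nor did the mesenchymal gene VIM (4711 to 5805 CPM). The part of these differences in the results below was not tested. Of the markers of the labelled cell type, OTX2 (601 to 887 counts) and MITF (743 to 1503 counts) were present, while RPE65, RLBP1, TYR and TYRP1, which serve the visual cycle and pigment synthesis, had at most 8 counts in any library. BEST1, a chloride channel of this cell type, had 26 and 14 counts in DMSO and 86, 30 and 142 after doxorubicin, and PMEL, a pigment granule protein, had 7 and 5 counts in DMSO and 22, 32 and 46 after doxorubicin, and their part in the results was not tested. The epithelial keratin gene KRT8 was at 369 and 346 CPM in DMSO and at 661, 636 and 661 after doxorubicin. KRT18 was at 327 and 238 CPM in DMSO and at 515, 334 and 460 after doxorubicin, and KRT19 had 3 to 8 counts. The part of the keratins in the results was not tested. CD3E, a T cell marker, had 0 counts throughout. PTPRC, a gene of leukocytes, had 5 and 7 counts in the DMSO libraries and 25, 53 and 72 after doxorubicin, whose part in the results was not tested. In such bulk libraries fewer cells of a type and less RNA per cell cannot be told apart.

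To show where the factors of the loop could bind, the promoters of the 10 genes were searched for their motifs. Each window ran from 250 bases before to 50 bases after a transcription start in RefSeq (GRCh38.p14), and both strands were searched. Some genes have several starts, and every window was used, 15 for the 10 genes and 35116 for all genes. The motifs were the E-box CACGTG, the D-box TTATGNAA, the ROR element TNGGTCA and the cAMP response element TGACGTCA, and no match in the 10 genes overlapped another. An E-box was found in 2 of the 15 windows, those of PER1 and NR1D2, and in 7.26% of all windows. A D-box was found in 3 windows, of PER1, PER3 and NR1D2 (3.3% of all windows), and a ROR element in 4, of ARNTL, CLOCK, CRY2 and NR1D2 (9.45% of all windows). The cAMP response element was found in 0 of 15 (1.85% of all windows). Matches in ARNTL, CLOCK, CRY2 and NR1D2 lie before a start that is inside the gene's span, for CLOCK 977, for CRY2 357, for NR1D2 835 and for ARNTL 1138 bases from its outermost start. The stretches are 30 bases long, written along the gene's strand, with the motif in capitals. They are shown because they give the letters that matched a motif, in which N stands for any base. Not shown are the ROR element of NR1D2, 133 bases before a start, and a further ROR element of ARNTL, 30 bases after a start. The latter reads TAGGTCA and differs from the match shown for ARNTL at the N. A match is a description of letters and not a binding site. A gene without a match can still have a site, since other spellings and positions were not searched. In the same annotation 8 of the 10 genes overlap another gene, CRY1 and CRY2 being the exceptions. No source used here gives the strand setting of the counting, so reads of such overlaps cannot be told apart.
PER1 E-box, chr17:8152560-8152589, minus strand: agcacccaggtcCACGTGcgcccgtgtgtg
PER1 D-box, chr17:8152416-8152445, minus strand: agtgcccggcaTTATGCAAcccgcctcccc
NR1D2 E-box, chr3:23945954-23945983, plus strand: ggcgggcggggaCACGTGaggccgctcggc
NR1D2 E-box, chr3:23946004-23946033, plus strand: gggccgcagggaCACGTGggggcgggggcg
NR1D2 D-box, chr3:23945916-23945945, plus strand: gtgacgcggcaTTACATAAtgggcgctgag
PER3 D-box, chr1:7784103-7784132, plus strand: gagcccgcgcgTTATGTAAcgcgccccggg
ARNTL ROR element, chr11:13277540-13277569, plus strand: ccaTTGGTCAgcggcctctctagccgccac
CLOCK ROR element, chr4:55546131-55546160, minus strand: gctaggccttgTGACCCActttattcctgt
CRY2 ROR element, chr11:45847399-45847428, plus strand: ttgcggcgtcaTAGGTCActgggcgggcta

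None of the 10 clock genes passed the threshold of an adjusted p of 0.01 in the comparison of 3 doxorubicin with 2 DMSO libraries (quasi-likelihood test of edgeR, adjusted by Benjamini and Hochberg's method over 14187 genes). Of all genes tested, 4.02% passed it. The count of 0 held with limma voom, where 3.71% of all genes were called, while DESeq2 called 1 of the 10, CLOCK, against 14.1% of all genes it tested, or 7.72% when only lower genes are counted. At an unadjusted p under 0.05 in edgeR, 3 of the 10 were past it, CLOCK, PER3 and ARNTL, each lower after doxorubicin, against 30.8% of all genes, or 15.6% when only lower genes are counted. At an adjusted p of 0.05 it was 1 of the 10, CLOCK, against 13.6% of all genes, or 7.48% lower. The same 3 genes were the only ones of the 10 in which all doxorubicin libraries lay on the same side of both controls. Such a separation was seen for 47.7% of all genes, for 23.4% with doxorubicin lower and for 24.3% with doxorubicin higher. The median log2 fold change was -0.25 for the 10 genes and 0.013 for all genes tested, and the median size of the change, regardless of sign, was 0.30 and 0.38.

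**Figure D1:**
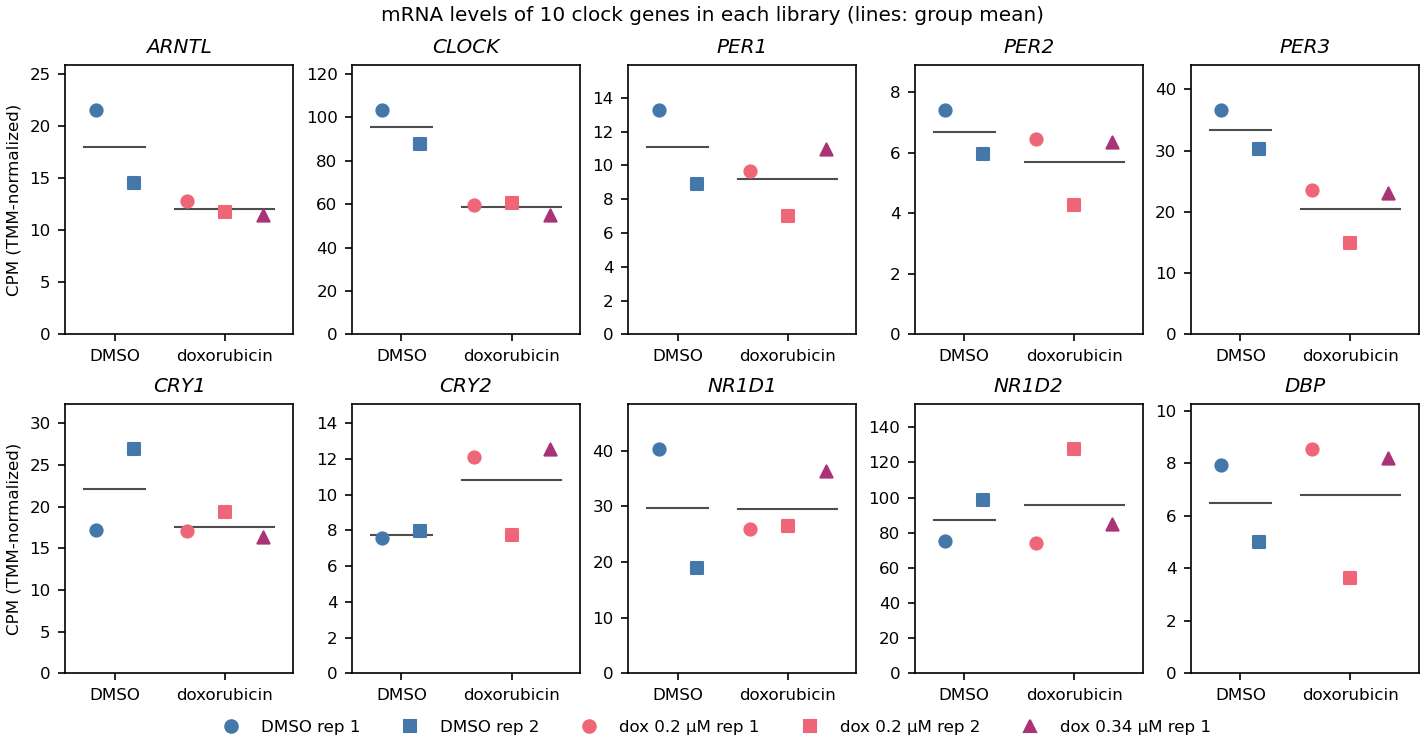
Normalized mRNA level (CPM, linear axis from 0) of the 10 clock genes in each library, with points for single libraries and a horizontal line for the mean of the DMSO and of the pooled doxorubicin libraries. The 3 doxorubicin libraries lie below both DMSO libraries for ARNTL, CLOCK and PER3, and overlap with them for the other 7 genes.

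The activators ARNTL and CLOCK, which bind DNA as a pair, were both lower in every doxorubicin library. CLOCK (chr4:55427903-55546909 of GRCh38, minus strand) was at 103 and 87.7 CPM in the DMSO libraries, at 59.8 and 60.5 at 0.2 μM and at 55.3 at 0.34 μM. The treated libraries were close to each other and well below both controls. The means were 95.6 ± 11.1 (SD, n = 2) in DMSO and 58.5 ± 2.82 (SD, n = 3) after doxorubicin, which is a change of -0.71 on the log2 scale (standard error 0.14, 95% interval -1.05 to -0.37, adjusted p = 0.0233 in edgeR). The adjusted p was 0.000612 in DESeq2 and 0.0261 in limma voom, and over all alternatives it lay between 0.000612 and 0.145. Leaving out any one library gave values of -0.84 to -0.59. ARNTL (chr11:13276652-13387266, plus strand) was at 21.6 and 14.5 CPM in DMSO, at 12.8 and 11.8 at 0.2 μM and at 11.4 at 0.34 μM. The groups did not overlap, but DMSO replicate 2 was closer to the treated libraries than to replicate 1. For ARNTL the change was -0.59 on the log2 scale (standard error 0.22, 95% interval -1.11 to -0.06, adjusted p = 0.126 in edgeR). Leaving out DMSO replicate 1 moved it to -0.28, and leaving out replicate 2 to -0.86.

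Of the PER genes, whose proteins form the repressor complex with CRY, PER3 was lower by the largest factor. PER3 (chr1:7784291-7845177, plus strand) was at 36.6 and 30.3 CPM in DMSO, at 23.5 and 14.9 at 0.2 μM and at 23.1 at 0.34 μM. All treated libraries were below both controls, and replicate 2 of 0.2 μM was lowest. On the log2 scale PER3 differed by -0.71 (standard error 0.24, 95% interval -1.27 to -0.14, adjusted p = 0.0976 in edgeR). Over the alternatives its adjusted p lay between 0.0345 and 0.270 and leaving out any one library gave changes of -0.85 to -0.52.

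PER1 and PER2 were less abundant and did not separate the treatments. PER1 (chr17:8140472-8152404, minus strand) was at 13.3 and 8.93 CPM in DMSO, at 9.67 and 6.98 at 0.2 μM and at 10.99 at 0.34 μM. PER2 (chr2:238244044-238300065, minus strand) was at 7.40 and 5.95 CPM in DMSO, at 6.46 and 4.28 at 0.2 μM and at 6.34 at 0.34 μM. In both genes the replicate 2 libraries were the low ones of their condition, and the groups overlapped. The estimates were -0.27 for PER1 (95% interval -0.94 to 0.41) and -0.23 for PER2 (95% interval -0.89 to 0.43), with adjusted p-values of 0.572 and 0.626 in edgeR. For PER1 it was 0.042 without DMSO replicate 1, so that the sign rested on that library, -0.54 without DMSO replicate 2, -0.10 without replicate 2 of 0.2 μM and -0.41 without the 0.34 μM library. For PER2 it was -0.068 without DMSO replicate 1, -0.39 without DMSO replicate 2 and -0.059 without replicate 2 of 0.2 μM. The intervals allow a change of either sign.

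The cryptochromes CRY1 and CRY2, close relatives that repress the ARNTL and CLOCK pair, had fold changes of opposite sign, neither of which passed the test. CRY1 (chr12:106991364-107093549, minus strand) was at 17.2 and 26.9 CPM in DMSO, at 17.1 and 19.3 at 0.2 μM and at 16.3 at 0.34 μM. Only DMSO replicate 2 stood above the rest. The difference was -0.33 on the log2 scale (95% interval -0.87 to 0.22, adjusted p = 0.382 in edgeR) and 0.012 without that library. CRY2 (chr11:45847118-45883244, plus strand) was at 7.59 and 7.95 CPM in DMSO, at 12.1 and 7.73 at 0.2 μM and at 12.6 at 0.34 μM. Both replicate 1 of 0.2 μM and the 0.34 μM library were high, while replicate 2 of 0.2 μM lay at the level of the controls. Its log2 fold change was 0.48 (95% interval -0.16 to 1.12, adjusted p = 0.283 in edgeR). This was the highest fold change of the 10 genes.

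Neither of the nuclear receptor genes NR1D1 and NR1D2 was called. NR1D1 (chr17:40092793-40100589, minus strand), which overlaps THRA on the other strand, was at 40.3 and 19.0 CPM in DMSO, at 26.0 and 26.4 at 0.2 μM and at 36.4 at 0.34 μM. The DMSO libraries enclosed all treated libraries. Its estimated log2 fold change was -0.00071 (95% interval -0.80 to 0.79, adjusted p = 0.999 in edgeR). Leaving out DMSO replicate 1 moved it to 0.64 and leaving out DMSO replicate 2 to -0.46, and without replicate 1 or replicate 2 of 0.2 μM it was 0.096 or 0.078, so no direction could be given. NR1D2 (chr3:23945286-23980617, plus strand) was at 75.5 and 98.5 CPM in DMSO, at 74.1 and 128 at 0.2 μM and at 85.2 at 0.34 μM. Here the replicate 2 libraries were the high ones. The log2 fold change was 0.14 (95% interval -0.49 to 0.76, adjusted p = 0.765 in edgeR). Leaving out DMSO replicate 1 gave -0.054, and leaving out replicate 2 of 0.2 μM gave -0.12.

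DBP, a bZIP factor whose gene is a direct target of ARNTL and CLOCK, had the largest log2 difference between the 0.2 μM libraries among the 10 genes. DBP (chr19:48630030-48637379, minus strand) was at 7.93 and 5.01 CPM in DMSO, at 8.55 and 3.62 at 0.2 μM and at 8.21 at 0.34 μM. Again both libraries numbered 2 were low and the groups overlapped. The log2 fold change was 0.07 (95% interval -0.93 to 1.07, adjusted p = 0.928 in edgeR). It was -0.23 without DMSO replicate 2, -0.11 without replicate 1 of 0.2 μM and -0.078 without the 0.34 μM library.

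The differences between libraries of one condition were then set beside the change after doxorubicin. For 9 of the 10 genes the DMSO libraries differed by more than counting error (95% exact binomial interval of the count ratio), and for 6 of the 10 the 0.2 μM libraries did. Over all genes tested the shares were 67.1% and 61.7%. These intervals cover counting error only and compare single libraries. NR1D1 was 2.13-fold higher in DMSO replicate 1 than in replicate 2 (interval 1.91 to 2.37), and DBP was 2.36-fold higher in replicate 1 of 0.2 μM than in replicate 2 (1.84 to 3.06). NR1D2 was 1.72-fold higher in replicate 2 of 0.2 μM (1.63 to 1.83). CLOCK had the smallest difference within pairs, by the larger of its 2, with a ratio of 1.18 (1.11 to 1.25) in DMSO and 0.99 (0.92 to 1.06) at 0.2 μM. Both pairs differed beyond counting error in the same direction in 5 genes, with PER1, PER2, PER3 and DBP higher in replicate 1 and NR1D2 higher in replicate 2, and in 0 genes in opposite directions. The change after doxorubicin was larger than the difference within both pairs for 3 of the 10 genes, ARNTL, CLOCK and PER3, and for 38.5% of all genes tested. For ARNTL the margin was small, 0.59 against 0.57 between the DMSO libraries on the log2 scale, and for PER3 it was 0.71 against 0.66 between the 0.2 μM libraries.

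**Figure D2:**
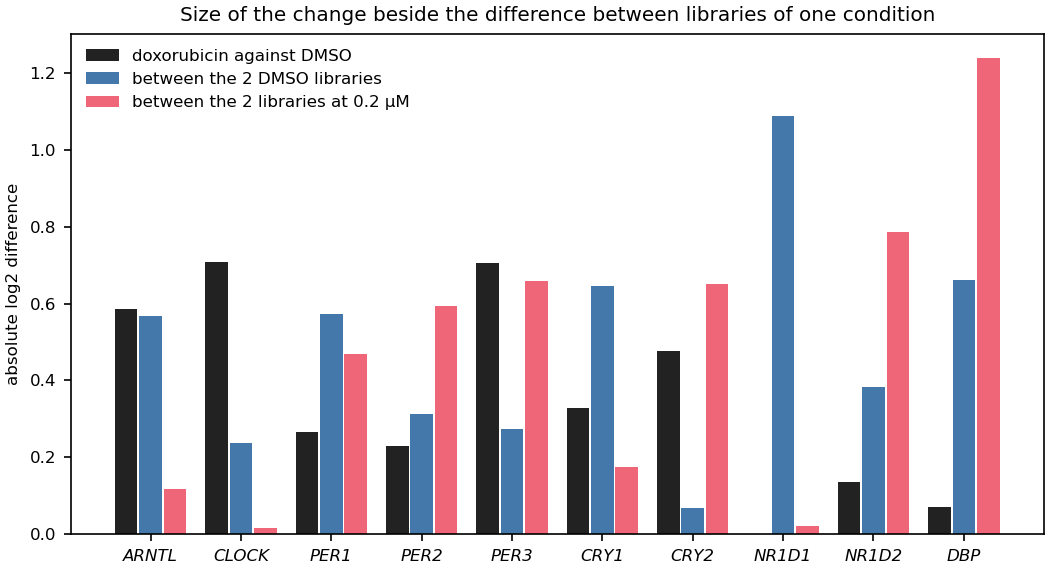
Absolute log2 difference (bars from 0) for each clock gene between doxorubicin and DMSO (black), between the 2 DMSO libraries (blue) and between the 2 libraries at 0.2 μM (red). The black bar is the highest for ARNTL, CLOCK and PER3, by a wide margin only for CLOCK, and the NR1D1 and DBP libraries of one condition differ by 1.09 and 1.24.

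Ratios of the counts of a pair of genes within one library need no normalization and were given as a description, with no test. The ratio of NR1D1 to ARNTL, a repressor and the gene it represses, was 1.87 and 1.30 in DMSO, 2.03 and 2.24 at 0.2 μM and 3.18 at 0.34 μM. All treated libraries were above both controls, with a mean difference of 0.64 on the log2 scale. Taken alone, NR1D1 had a log2 fold change of -0.00071 and ARNTL of -0.59. The share of all gene pairs with such a separation was not computed. The ratio of CRY1 to CRY2 was 2.27 and 3.38 in DMSO, 1.41 and 2.49 at 0.2 μM and 1.30 at 0.34 μM. It was lowest in replicate 1 of 0.2 μM and in the 0.34 μM library, but replicate 2 of 0.2 μM lay between the controls. The ratio of PER1 to PER2 stayed between 1.497 and 1.79 in all libraries, the narrowest range of the 6 ratios. The ratios of PER2, DBP and PER3 to ARNTL overlapped between the treatments. For DBP to ARNTL the values were 0.368 and 0.345 in DMSO and 0.668, 0.306 and 0.718 after doxorubicin, so that replicate 2 of 0.2 μM lay below both controls and the other treated libraries above them.

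**Figure D3:**
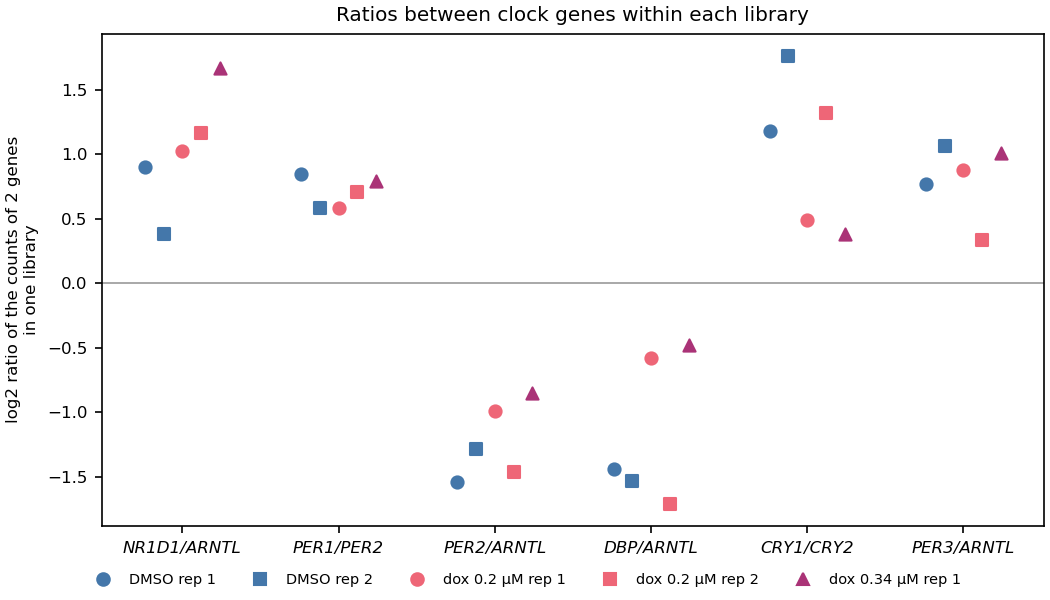
Log2 ratio of the raw counts of 2 clock genes within each library, with 1 point per library. Only for NR1D1 to ARNTL do all 3 doxorubicin libraries (1.02 to 1.67) lie above both DMSO libraries (0.38 and 0.90), and for DBP to ARNTL and CRY1 to CRY2 replicate 2 of 0.2 μM lies apart from the other treated libraries.

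To order the genes by level, the CPM was divided by the length of the canonical transcript (GENCODE, lifted to GRCh37), since longer transcripts give more reads. In DMSO the mean level per kilobase was highest for NR1D2 (16.6 CPM per kb), followed by NR1D1 (11.3), CLOCK (9.13), CRY1 (7.38), ARNTL (6.47), PER3 (5.26), DBP (2.98), PER1 (2.37), CRY2 (1.88) and PER2 (1.05). Neighbours from NR1D2 down to PER3 overlapped in the DMSO libraries, as did DBP with PER1 and PER1 with CRY2. Gaps between neighbours were present below PER3, where DBP reached at most 3.66 and PER3 at least 4.76, and above PER2, whose highest value was 1.16. After doxorubicin NR1D2 (18.3) and NR1D1 (11.3) were still first and PER2 (0.892) last, CRY1 (5.88) was above CLOCK (5.59) and CRY2 (2.62) above PER1 (1.97). The highest and lowest values overlapped between CRY1 and CLOCK and between all neighbours from PER3 to PER1, and not between the other neighbours. Neither of these changes of place was tested. Since the transcripts that RPE1 cells use are not known from these counts, the order is approximate.

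Between the doses, 0 of the 10 genes were called, as were 0% of all genes in edgeR and in DESeq2. None of the 10 had an unadjusted p under 0.05, against 0.155% of all genes in edgeR. The single 0.34 μM library has no replicate, and its spread was taken from the other conditions. The log2 differences of 0.34 μM over 0.2 μM ranged from -0.24 for NR1D2 (95% interval -1.14 to 0.65) to 0.47 for NR1D1 (-0.56 to 1.51). For CLOCK the difference was -0.12 (-0.73 to 0.48), for ARNTL -0.11 (-0.98 to 0.77) and for PER3 0.26 (-0.59 to 1.11). The intervals are wide, so the counts do not show that the doses acted alike. Against DMSO, CLOCK was at -0.67 for 0.2 μM and -0.79 for 0.34 μM, ARNTL at -0.55 and -0.66 and PER3 at -0.80 and -0.54 on the log2 scale. These comparisons share the DMSO libraries.

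Other clock genes listed were 13 transcription factors and related proteins, 12 kinases, ligases and other enzymes acting on clock proteins, and 12 output genes. Of these, 10, 11 and 10 were tested. In these lists 1, 0 and 2 genes passed the threshold in edgeR, all lower after doxorubicin, where 2.73% of all genes tested were called lower, and 0 genes passed it as higher (1.29% of all genes). The median log2 fold changes of the lists were -0.27, -0.16 and -0.28. TIMELESS, the relative of a fly clock gene that in mammals is best known as a replication fork protein, fell from 58.5 and 106 CPM in DMSO to 23.1 and 25.8 at 0.2 μM and 18.0 at 0.34 μM. This was a change of -1.88 on the log2 scale (standard error 0.28, adjusted p = 0.00897 in edgeR). WEE1, a kinase that holds cells before mitosis and a known output gene of the clock, fell from 42.6 and 52.6 CPM to 15.1, 16.1 and 14.6, a difference of -1.64 on the log2 scale (standard error 0.17, adjusted p = 0.00225 in edgeR). FKBP5, a chaperone of the glucocorticoid receptor, fell from 44.3 and 52.8 CPM to 14.0, 14.6 and 12.3, a difference of -1.83 on the log2 scale (standard error 0.17, adjusted p = 0.00169 in edgeR). In all 3 genes the treated libraries lay below both controls. With limma voom the call of TIMELESS was lost (adjusted p = 0.0115). In edgeR the calls of TIMELESS and WEE1 held without DMSO replicate 1 and were lost when any of the other 4 libraries was left out, with adjusted p-values of up to 0.0330 for TIMELESS and 0.0162 for WEE1 in edgeR. That of FKBP5 was lost without DMSO replicate 2, replicate 1 of 0.2 μM or the 0.34 μM library, with adjusted p-values of up to 0.0141 in edgeR.

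**Figure D4:**
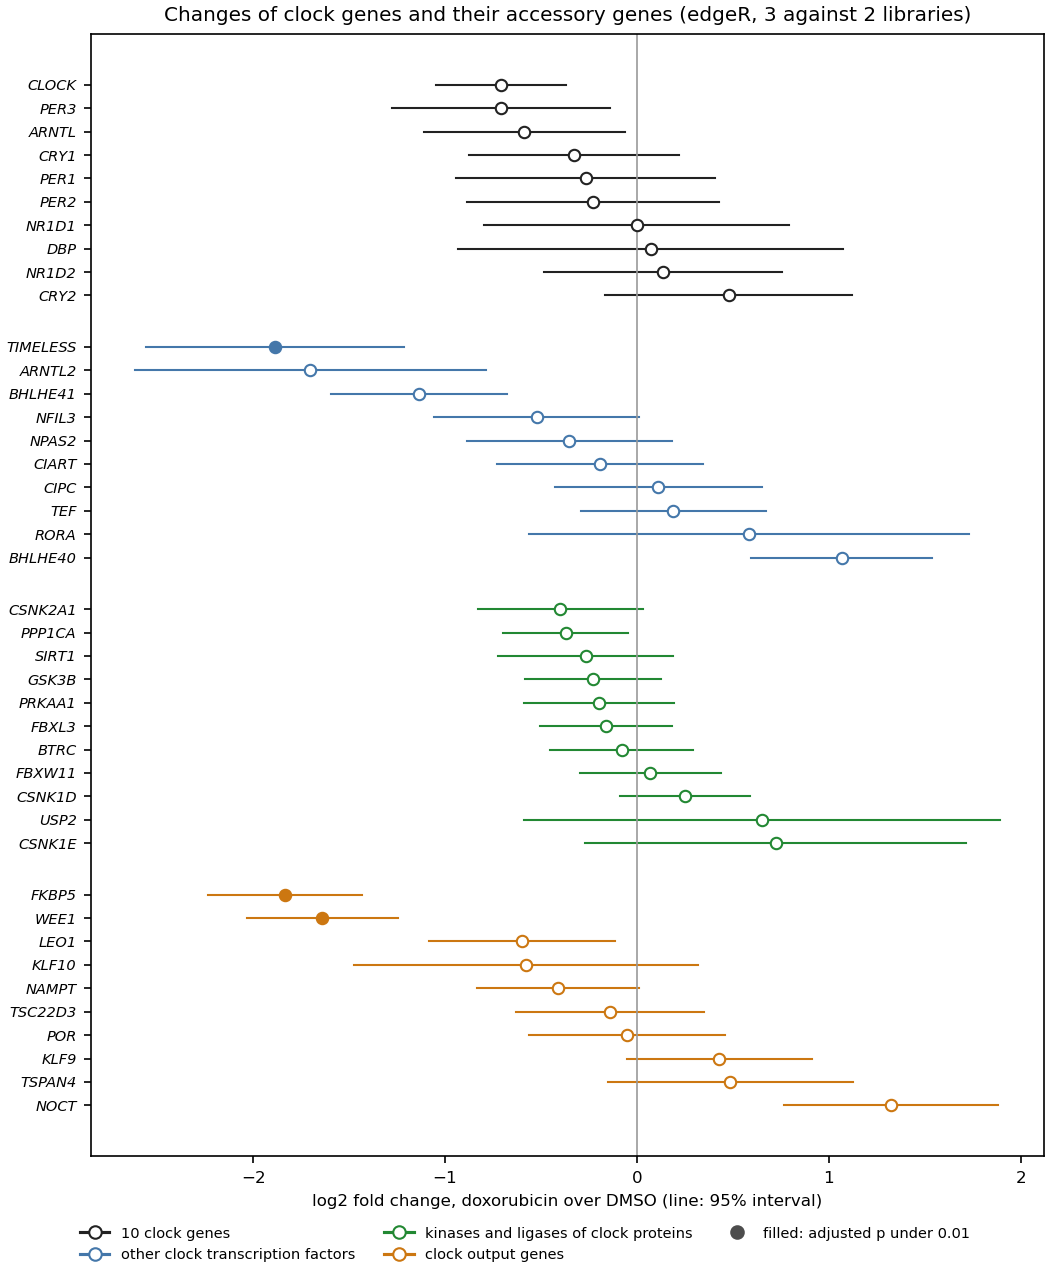
Log2 fold change of doxorubicin over DMSO with its 95% interval for the 10 clock genes and the tested genes of the 3 accessory lists, with filled points for an adjusted p under 0.01 in edgeR. No point of the 10 clock genes is filled, TIMELESS, WEE1 and FKBP5 are, and of the 10 clock genes the intervals of CLOCK, PER3 and ARNTL lie below 0.

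The paralogs BHLHE40 and BHLHE41 (DEC1 and DEC2), E-box binding repressors of the loop, had fold changes of opposite sign just outside the threshold. BHLHE40 was at 105 and 70.8 CPM in DMSO and at 180, 180 and 192 after doxorubicin, a difference of 1.07 on the log2 scale (standard error 0.20, adjusted p = 0.0179 in edgeR). BHLHE41 was at 61.8 and 63.8 CPM in DMSO and at 27.1, 34.9 and 23.9 after doxorubicin, a difference of -1.13 on the log2 scale (standard error 0.19, adjusted p = 0.0132 in edgeR). The groups of both genes did not overlap, and DESeq2 called both (adjusted p = 3.32e-05 for BHLHE40 and 1.25e-05 for BHLHE41). Over all alternatives the adjusted p reached 0.0757 for BHLHE40 and 0.0682 for BHLHE41. ARNTL2, a paralog of ARNTL named after its values were seen, was at 65.3 and 148 CPM in DMSO and at 28.8, 44.8 and 24.7 after doxorubicin (log2 fold change -1.70, adjusted p = 0.0332 in edgeR). NOCT, an output gene of the clock also named after its values were seen, was at 7.93 and 8.81 CPM in DMSO and at 16.4, 24.9 and 21.5 after doxorubicin (log2 fold change 1.32, adjusted p = 0.0152 in edgeR). An E-box was found in 6 of the 12 listed transcription factors and related proteins with a promoter in RefSeq, and in 8.77% of all genes. The 6 were BHLHE40, BHLHE41, TIMELESS, CIART, CIPC and TEF. The log2 fold changes of CIART, CIPC and TEF were -0.19, 0.11 and 0.19. Whether an E-box goes with a change was not tested. The stretches around the E-box are shown for BHLHE40, BHLHE41 and TIMELESS, described above, and not for CIART, CIPC and TEF.
BHLHE40 E-box, chr3:4979187-4979216, plus strand: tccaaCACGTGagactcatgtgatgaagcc
BHLHE41 E-box, chr12:26125068-26125097, minus strand: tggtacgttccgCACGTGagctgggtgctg
TIMELESS E-box, chr12:56449434-56449463, minus strand: ttcgctcggagtCACGTGgaccagcccggc

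The remaining named factors and kinases did not pass the threshold. NPAS2, which can take the place of CLOCK, had a log2 fold change of -0.35 (-0.89 to 0.18), which was 0.013 without DMSO replicate 2. CIART, a further repressor of the pair, was at -0.19 (-0.73 to 0.34). NFIL3, which competes with DBP at D-boxes, was at -0.52 (-1.06 to 0.01), and TEF, a relative of DBP, at 0.19 (-0.29 to 0.67). RORA, which opposes NR1D1 at ROR elements, was close to the limit of detection at 0.431 to 1.08 CPM, with a log2 fold change of 0.59 (-0.56 to 1.73). Of the kinases that phosphorylate PER proteins, CSNK1D was at 0.25 (-0.09 to 0.59) and CSNK1E at 0.72 (-0.27 to 1.72). The gene span of CSNK1E lies within a readthrough gene in RefSeq, so its low level of 1.07 to 3.36 CPM is uncertain. Leaving out DMSO replicate 1 moved CSNK1E to 0.27 and RORA to 1.002, and leaving out DMSO replicate 2 moved CSNK1E to 1.35 and RORA to 0.25. CIART moved to -0.081 without DMSO replicate 1, to -0.32 without DMSO replicate 2 and to -0.12 without replicate 1 of 0.2 μM. TEF moved to 0.11 without DMSO replicate 1, to 0.32 without replicate 2 of 0.2 μM and to 0.13 without replicate 1 of 0.2 μM or the 0.34 μM library. NPAS2 moved to -0.66 without DMSO replicate 1.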

How the data were processed

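RNA-seq counts per gene of 5 RPE1 libraries were analysed. Per the labels and the study's methods, poly-A RNA was made into stranded libraries, reads were aligned with STAR to hg38 and counted per gene with featureCounts, and the authors deposited the raw counts without normalization. Versions, the strand setting and the treatment of multi-mapping reads were not stated in these sources. A table of the authors' own comparison (mean normalized count, log2 fold change, standard error, statistic, p and adjusted p) was not used.

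Genes were kept by edgeR's filter (minimum count 10, minimum total 15; 14187 of 26485) and normalized by TMM (factors 0.975 to 1.04). The 3 doxorubicin libraries, described in the study as replicates, were compared with the 2 DMSO libraries by edgeR's quasi-likelihood test (edgeR 4.0.16, R 4.3.3) with Benjamini-Hochberg adjustment over all genes tested and a threshold of 0.01. The doses were compared in a fit of 3 conditions. P-values measure the spread between these libraries. Alternatives were DESeq2 1.42.0, limma voom (limma 3.58.1), other scalings, no filter, a threshold of 0.05, 0.2 μM alone, a replicate block and leaving out each library. CPM are TMM-normalized, and log2 CPM profiles used a prior count of 2. Levels per kilobase used canonical GENCODE transcript lengths. Promoters and gene positions came from RefSeq (GRCh38.p14).

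All 10 genes were named. Of the other lists, genes past the threshold and 10 genes set by name were named, as were the 3 genes whose profile was closest to that of the member with the smallest p. The members and lists were chosen with earlier results of these data known.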

Additional observations from a re-analysis of the deposited data

How the results depend on the processing

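The number of genes called between doxorubicin and DMSO was 571 in edgeR, 2026 with DESeq2, 1020 without the filter on low counts, 1927 at an adjusted p of 0.05, 171 for 0.2 μM alone and 49 to 215 with each library left out, the lowest without DMSO replicate 2. Of the 10 clock genes, 0 were called in edgeR and 1 (CLOCK) with DESeq2 and at an adjusted p of 0.05, and 0 under each of the other alternatives run. Of the accessory genes (10, 11 and 10 tested in the 3 lists after the filter), 3 were called in edgeR, against 4.02% of all genes. It was 7 with DESeq2 (14.1% of all genes), at 0.05 (13.6%) and without the filter, ARNTL2, BHLHE40, BHLHE41 and NOCT being added. It was 2 with limma voom (3.71% of all genes), without TIMELESS (adjusted p = 0.0115). It was 0 for 0.2 μM alone and 0 or 1 with a doxorubicin library left out. For these settings, and without the filter, the share of all genes is not given, so the counts have no background beside them. The cause of these differences was not tested.

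The sign turned in 6 named genes. NR1D1 was at 0.091 with limma voom, 0.044 with upper quartile scaling and 0.0086 without the filter, and DBP at -0.089 for 0.2 μM alone. With each library left out the log2 fold change lay between -0.54 and 0.042 for PER1, -0.62 and 0.012 for CRY1, -0.46 and 0.64 for NR1D1, -0.12 and 0.32 for NR1D2, -0.23 and 0.44 for DBP and -0.66 and 0.013 for NPAS2.

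The replicate numbers are shared between DMSO and 0.2 μM, but no label says that they mark a shared culture or day. Across 14187 genes, which are not independent, the difference of replicate 1 and 2 correlated between the treatments with r = 0.53. With the number as a replicate block, and without the 0.34 μM library, 1249 genes were called, 0 of the 10 clock genes and 7 accessory genes. The share of all genes called in that fit is not given, so the 7 have no background beside them. DBP was at -0.16 in it. DBP, PER2, CRY2 and PER1 had the lowest mean counts of the 10 clock genes, with counts per library between 87 and 456.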

Other observations

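Ratios of 2 further pairs were computed after the data were seen and are given as values only. The ratio of BHLHE40 to BHLHE41 counts was 1.69 and 1.11 in the DMSO libraries, 6.63 and 5.17 at 0.2 μM and 8.003 at 0.34 μM, so that all treated libraries lay above both controls. The ratio of NPAS2 to CLOCK was 0.294 and 0.558 in DMSO, 0.485 and 0.544 at 0.2 μM and 0.567 at 0.34 μM, and DMSO replicate 1 alone was low.

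The genes whose profile over the 5 libraries was closest to that of CLOCK, by the root mean square distance of centred log2 CPM, were HTATSF1 (0.0164), GLI3 (0.0213) and C6orf136 (0.0245). Their log2 fold changes were -0.72, -0.74 and -0.71, beside -0.71 for CLOCK, a closeness that follows from choosing them by profile. With 5 libraries such a likeness is a description.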
